A study of Mus musculus with 2 samples.

Results

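A set of 10 genes of glucose breakdown was followed here through every cell type of a mouse brain region, in animals given an N-acyl amino acid and in animals given its vehicle. The members were Hk1, Gpi1, Pfkm, Pfkp, Aldoa, Tpi1, Gapdh, Pgk1, Pkm and Ldha. They were taken as a list by symbol, with earlier results of these data known, and all 10 were among the 31053 genes counted. All 10 encode the enzymes their list is named for, with Ldha acting on the end product of the pathway. The data were 2 libraries of single nuclei from entorhinal cortex, a region between neocortex and hippocampus. Each library pooled nuclei of 5 male APP/PS1 mice, transgenic animals that express mutant human amyloid precursor protein and presenilin 1 and deposit amyloid in the brain. The OLE library came from mice that drank N-oleoyl-leucine (labelled C18:1-Leu) at 25 mg/kg/day from month 15 to month 18 of age, and the vehicle library from mice of the same genotype, sex and age that drank DMSO vehicle. No wild-type mice were in these libraries.

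Glycolysis splits glucose into pyruvate in the cytosol and yields ATP without oxygen, and lactate dehydrogenase then interconverts pyruvate and lactate. Several steps are served by isozymes from different genes, and in brain these differ between cell types: hexokinase 1, for example, is known as the main hexokinase of neurons, and aldolase C as the aldolase of astrocytes. Many of the genes respond to hypoxia-inducible factor, and microglia are known to raise glycolysis when activated.

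The vehicle library held 6745 nuclei and 70845739 unique molecular identifiers (UMIs, each marking 1 captured molecule), and the OLE library held 6173 nuclei and 69485537 UMIs, with medians of 3989 and 6392 UMIs per nucleus. After removal of likely doublets 6414 and 5895 nuclei remained, in 24 clusters, and 14 barcodes occurred in both libraries. Clusters were made without the members among their variable genes and were named from marker genes with the ending "-like". The largest cluster, with 2475 vehicle and 2034 OLE nuclei, was left unnamed and is called cluster 0: 8 of 12 glutamatergic markers were raised in it, but its median depth was 2360 UMIs in vehicle and 4752 in OLE, against 20780 and 19265 in glutamatergic-like nuclei. Endothelial nuclei formed no named cluster. With 1 library per condition no test between conditions could be run. All intervals are exact 95% intervals for counting error only, and differences between mice, dissections or library preparations cannot be told apart from the treatment.

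On the mouse genome build GRCm38 the members lie on 7 chromosomes and differ widely in span, the distance from the first to the last annotated base. Hk1 is the longest, at chr10:62268855-62379908 on the minus strand (111 kb), followed by Pfkp at chr13:6579768-6648777 on the minus strand (69.0 kb) and Pfkm at chr15:98092589-98132451 on the plus strand (39.9 kb). Gpi1 spans 29.0 kb at chr7:34201330-34230336 (minus) and Pkm 23.0 kb at chr9:59656368-59679375 (plus). Pgk1 spans 16.6 kb at chrX:106187100-106203699 (plus) and Ldha 14.2 kb at chr7:46841475-46855627 (plus). The shortest are Aldoa, 5.52 kb at chr7:126795234-126800751 (minus), Gapdh, 4.75 kb at chr6:125161715-125166467 (minus), and Tpi1, 3.71 kb at chr6:124810586-124814296 (minus). Introns were counted by the authors, so the span bears on how many places in a transcript can be captured.

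Promoter sequences of 3 members are shown because these genes lie on either side of the difference described later: Pgk1 and Ldha were counted higher in the OLE library in glutamatergic-like nuclei, and Pfkp was not. Each line gives the 250 bases before a start site from RefSeq on GRCm38.p6, read 5′ to 3′ on the strand of the gene, with the letters ACGTG or GCGTG, or either on the other strand, in capitals. The core of the site known for hypoxia-inducible factor is either ACGTG or GCGTG, and the palindrome CACGTG holds ACGTG on both strands. The windows are chrX:106186850-106187099 on the plus strand for Pgk1, chr7:46845554-46845803 on the plus strand for Ldha and chr13:6648772-6649021 on the minus strand for Pfkp.
Pgk1: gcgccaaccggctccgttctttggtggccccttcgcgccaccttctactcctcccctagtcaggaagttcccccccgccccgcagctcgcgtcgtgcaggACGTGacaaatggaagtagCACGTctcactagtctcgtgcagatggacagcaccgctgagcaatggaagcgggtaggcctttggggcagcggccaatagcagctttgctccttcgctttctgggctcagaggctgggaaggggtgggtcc
Ldha: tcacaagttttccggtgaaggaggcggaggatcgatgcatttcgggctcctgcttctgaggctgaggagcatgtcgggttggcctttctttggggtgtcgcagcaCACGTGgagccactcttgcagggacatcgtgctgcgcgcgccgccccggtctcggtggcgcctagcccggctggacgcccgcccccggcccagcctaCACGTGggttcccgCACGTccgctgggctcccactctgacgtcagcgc
Pfkp: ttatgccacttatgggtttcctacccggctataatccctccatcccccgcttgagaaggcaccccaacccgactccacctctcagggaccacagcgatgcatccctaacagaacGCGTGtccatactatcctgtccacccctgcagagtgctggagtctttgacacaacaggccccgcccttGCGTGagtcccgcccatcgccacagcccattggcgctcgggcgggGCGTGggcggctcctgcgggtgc

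Counting overlapping places and both strands, the Pgk1 window held 2 such places, that of Ldha 5, from 2 copies of CACGTG read on both strands and 1 further ACGTG, and that of Pfkp 3, all GCGTG. The last 6 bases of the Pfkp window lie in an exon annotated by GENCODE. In each RefSeq promoter only the 250 bases before the start were searched. Of 18 promoters of the 10 members, 7, from 5 members, held ACGTG there on either strand, as did 16.6% of 32851 mouse promoters. GCGTG was held by 6, as by 28.2% of the mouse promoters. Some promoters of Aldoa and of Pfkm overlap each other, so the 18 are not independent. Among promoters not printed, that at the first of the Pfkm starts held CACGTG and that of Tpi1 held neither ACGTG nor GCGTG, with log2 ratios in glutamatergic-like nuclei of 0.03 for Pfkm and 0.44 for Tpi1. Promoters of Aldoa and Pkm, with ratios of 0.65 and 0.42 in those nuclei, each held at most 1 ACGTG and 0 GCGTG. Over the same 250 bases the median share of G and C was 59.4% in the member promoters and 52.4% over all promoters. Its part in these counts was not tested. A match is a description of letters and not a site.

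Levels per cell type are UMIs of a gene per 1000000 UMIs of that cell type in that library. The hexokinase Hk1 traps glucose in the cell by phosphorylating it. Its level was highest in astrocyte-like nuclei, at 105 in vehicle and 94.2 in OLE, and lay at 74.6 and 77.4 in glutamatergic-like nuclei, neighbours whose intervals overlapped. GABAergic-like nuclei came next at 57.3 and 64.3, separated from glutamatergic-like nuclei in both libraries, and oligodendrocyte-like nuclei were last at 36.6 and 31.8. Gpi1 encodes the isomerase that makes fructose 6-phosphate. It ranged from 102 and 122 in microglia-like nuclei to 34.6 and 50.1 in oligodendrocyte precursor (OPC)-like nuclei, which were separated from each other in both libraries, while no neighbours in the order were.

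The phosphofructokinase genes followed the neurons and astrocytes. Phosphofructokinase commits sugar to glycolysis, and Pfkp encodes its platelet-type and Pfkm its muscle-type subunit. Pfkp stood at 181 in vehicle and 171 in OLE in glutamatergic-like nuclei, above every other named type in both libraries, at 144 and 139 in astrocyte-like nuclei, and at 131 and 139.9 in GABAergic-like nuclei. Vascular leptomeningeal-like nuclei, separated from these in both libraries, held 78.1 and 79.5, and the lowest level was 40.2 and 37.4 in oligodendrocyte-like nuclei. Pfkm had the same 3 types at its top, at 55.3 and 48.2 in astrocyte-like, 39.6 and 50.9 in GABAergic-like and 44.3 and 45.1 in glutamatergic-like nuclei, with no separation among them. OPC-like nuclei followed at 24.3 and 23.5, separated from glutamatergic-like nuclei in both libraries, and oligodendrocyte-like nuclei held 5.03 and 8.37, from 11 and 15 UMIs.

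Aldoa and Tpi1 had another order, led by vascular leptomeningeal-like and microglia-like nuclei. Aldolase cuts fructose 1,6-bisphosphate into its triose phosphates, and Tpi1 interconverts them. Aldoa was at 36.3 in vehicle and 57.0 in OLE in glutamatergic-like nuclei and at 37.1 and 66.3 in GABAergic-like nuclei, against 114 and 134 in microglia-like, 67.2 and 89.9 in oligodendrocyte-like and 69.4 and 80.8 in astrocyte-like nuclei. In OPC-like nuclei it was at 51.2 and 51.6. The vascular leptomeningeal-like nuclei held 71.9 in vehicle and 183 in OLE, the widest gap between libraries of any member with at least 100 UMIs in a named type. Tpi1 was at 20.7 and 28.0 in glutamatergic-like, 26.1 and 40.4 in GABAergic-like, 51.4 and 66.8 in microglia-like and 56.3 and 78.0 in vascular leptomeningeal-like nuclei. It was lowest in OPC-like nuclei at 12.8 and 23.5, and its GABAergic-like level in OLE was above those of oligodendrocyte-like (32.4) and astrocyte-like (35.9) nuclei.

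Of the later enzymes, Pgk1 and Ldha were low in neurons and higher in microglia-like nuclei, and Pkm was lowest in glutamatergic-like nuclei. Phosphoglycerate kinase, from Pgk1, makes the first ATP of the pathway. Its level was 18.1 in vehicle and 21.6 in OLE in glutamatergic-like nuclei and 36.5 and 47.3 in microglia-like nuclei, and 14.1 in OPC-like nuclei of the OLE library. Pkm, the pyruvate kinase gene of brain, was lowest in glutamatergic-like nuclei at 48.6 and 64.8, and reached 107 and 136 in oligodendrocyte-like and 118 and 121 in microglia-like nuclei. Ldha, the lactate dehydrogenase subunit that favours lactate, was at 9.25 and 11.7 in GABAergic-like, 15.2 and 19.3 in glutamatergic-like and 39.9 and 43.1 in microglia-like nuclei. Its levels in astrocyte-like (15.4 and 19.1), oligodendrocyte-like (14.6 and 15.6) and OPC-like nuclei (12.8 and 12.5) were not separated from the glutamatergic-like ones in both libraries.

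Gapdh, which oxidises glyceraldehyde 3-phosphate, was nearly absent. It was counted at 2.76 in vehicle and 3.0 in OLE in glutamatergic-like nuclei, with 117 and 119 UMIs, and at 4.2 and 4.42 in GABAergic-like nuclei. No Gapdh UMI was found in microglia-like nuclei of either library. In the reference transcripts, the last 400 bases of Gapdh matched transcripts of 54 other genes, 52 of them pseudogenes, at 98% identity or more over at least 91 bases, while none of the other 9 members had such a match. Its level is uncertain for that reason, and the part of these copies in its low count was not tested.

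**Figure D1:**
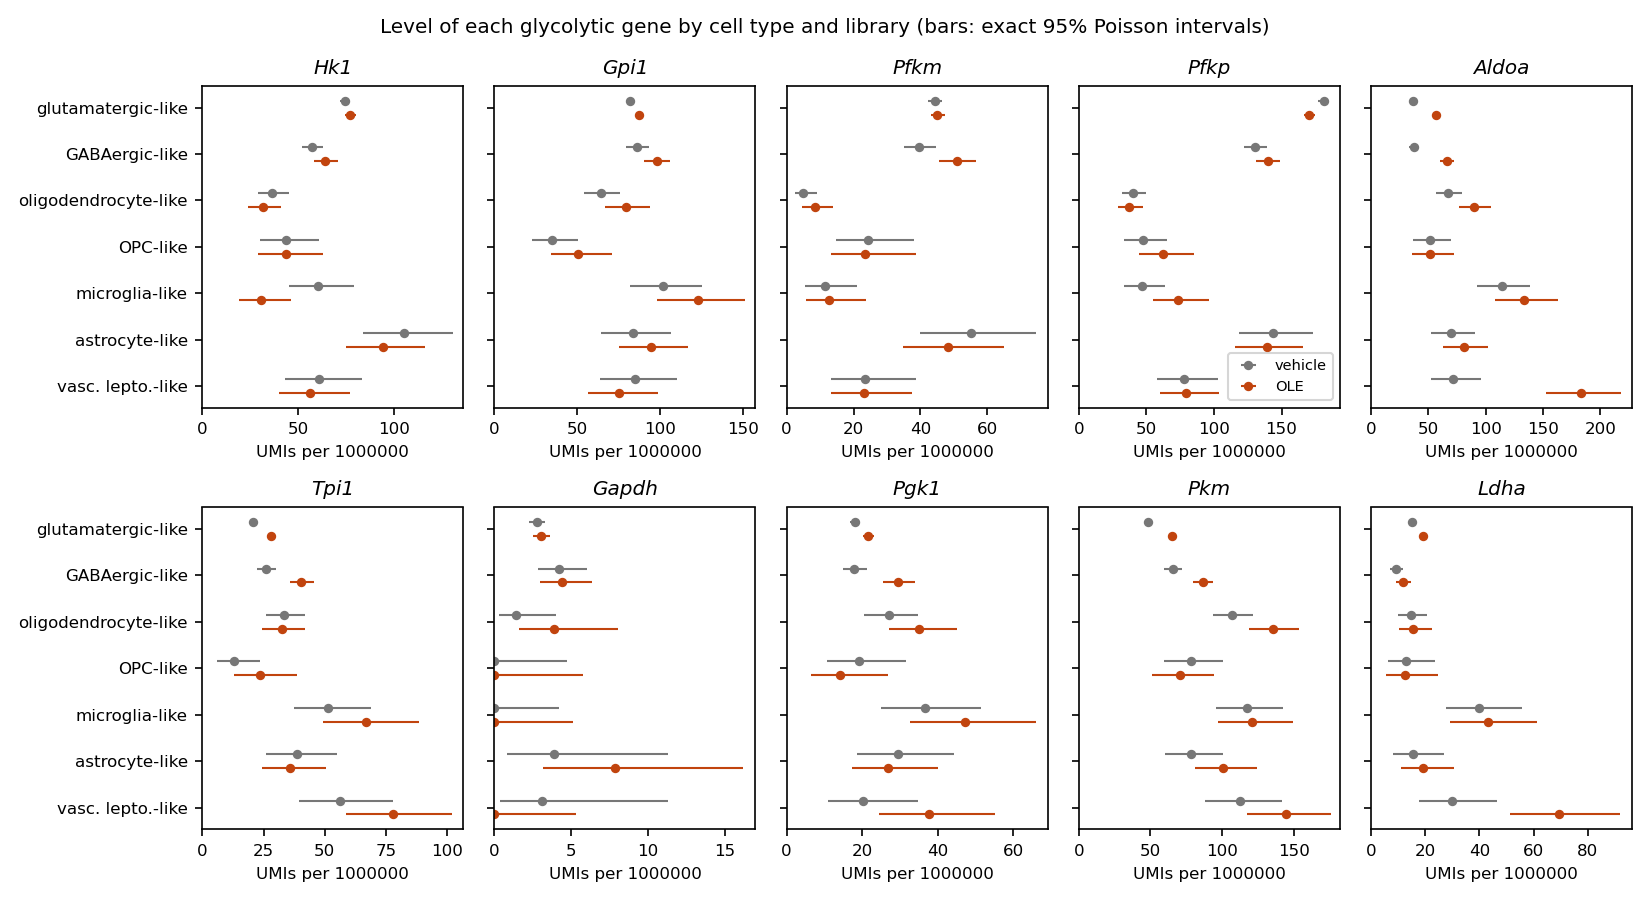
Each panel shows 1 gene, with UMIs per 1000000 on the horizontal axis from 0 and 7 cell types on the vertical axis. Grey points are the vehicle library, red points the OLE library, and bars exact 95% Poisson intervals. Pfkp was highest in glutamatergic-like nuclei (181 and 171), whereas Aldoa was lowest there in vehicle (36.3) and higher in the OLE library (57.0).

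Between genes, levels are compared per kb of span. In glutamatergic-like nuclei Aldoa had the highest level per kb, at 6.59 UMIs per 1000000 per kb in vehicle and 10.3 in OLE, followed by Tpi1 at 5.57 and 7.55. Gpi1 (2.82 and 3.01), Pfkp (2.63 and 2.47) and Pkm (2.11 and 2.81) formed a middle group. Hk1, at 0.672 and 0.697, and Gapdh, at 0.58 and 0.631 and with its level uncertain as said above, were lowest. Aldoa and Tpi1 are among the shortest members and Hk1 is the longest. Whether UMIs rise in proportion to span was not tested.

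The isozymes divided the types more sharply than the summed members did. Hk2, the inducible hexokinase, made up 75.6% (95% interval 69.3 to 81.1) of the Hk1 and Hk2 UMIs of microglia-like nuclei in vehicle and 86.1% (79.7 to 91.1) in OLE, against 0.783% and 0.583% in glutamatergic-like nuclei. As levels, Hk2 was at 187 and 189 UMIs per 1000000 in microglia-like nuclei and at 3.86 or less in the other 6 types. Hk3, a hexokinase of white blood cells, was at 71.9 and 91.8 there, and Pfkfb3, which makes the activator of phosphofructokinase, at 136 and 129. Among aldolases, Aldoc took 73.0% (66.3 to 79.0) of the Aldoa and Aldoc UMIs of astrocyte-like nuclei in vehicle and 73.3% (67.6 to 78.5) in OLE, and 14.3% and 13% in glutamatergic-like nuclei.

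Lactate dehydrogenase and enolase showed smaller shifts. Ldhb, the subunit that favours pyruvate, made up 90.2% and 90.3% of the Ldha and Ldhb UMIs in astrocyte-like nuclei and 73.3% (71.5 to 75.0) and 70.9% (69.1 to 72.6) in glutamatergic-like nuclei. Eno2, the neuronal enolase, held 70.4% and 69.5% of the Eno1 and Eno2 UMIs in glutamatergic-like nuclei but 21.6% and 22.4% in astrocyte-like nuclei. The shares depend on the spans of the genes, so they are compared only between types and libraries.

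**Figure D2:**
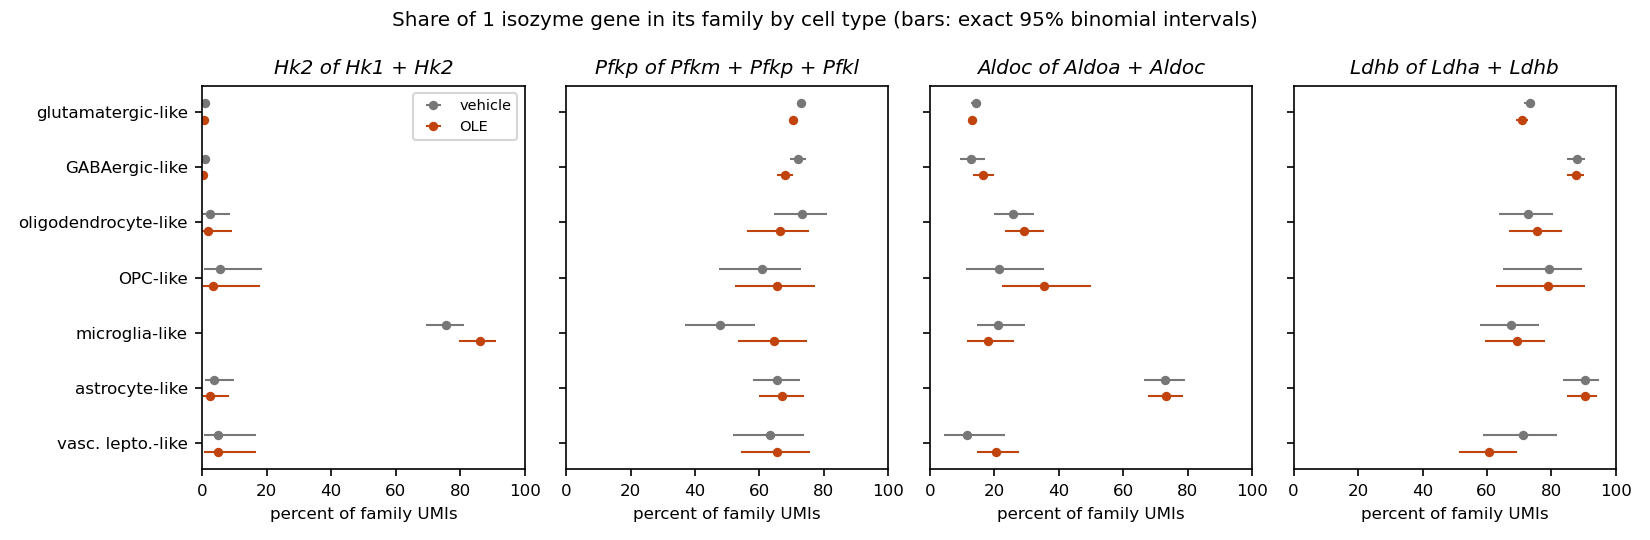
Each panel shows the share of 1 isozyme gene in the UMIs of its family, from 0 to 100 percent, for 7 cell types, with exact 95% binomial intervals (grey, vehicle; red, OLE). Hk2 stood apart in microglia-like nuclei (75.6% and 86.1%) and Aldoc in astrocyte-like nuclei (73.0% and 73.3%).

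In cluster 0, nuclei of low depth with glutamatergic markers, most members divided in the same way, with Gpi1 between the groups. Aldoa was at 214 UMIs per 1000000 in vehicle and 297 in OLE there, which is 589% and 521% of its level in glutamatergic-like nuclei, and it was among the 10 leading genes of the cluster by fold. Tpi1 stood at 373% and 363% of its glutamatergic-like level, Pgk1 at 371% and 427%, Pkm at 333% and 289% and Ldha at 323% and 350%. Gpi1 was at 225% and 216%, Pfkm at 138% and 130%, Pfkp at 118% and 115%, and Hk1 at 80.1% and 80.0%. A list of 14 neuronal genes, summed, was at 92.6% and 92.5% of its glutamatergic-like level in the same nuclei. Its single genes ran from 47.9% to 373% in vehicle, with a median of 151%.

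Neuronal RNA was counted in glial nuclei too. The summed neuronal list was at 34.4% and 34.7% of its glutamatergic-like level in microglia-like nuclei, 24.8% and 24.0% in oligodendrocyte-like, 17.3% and 16.0% in OPC-like and 16.8% and 16.3% in astrocyte-like nuclei, with none of the 14 genes at 0 in any of them. Single genes of the list varied widely in vehicle, from 10.8% to 160% with a median of 62.2% in microglia-like nuclei. They ran from 9.81% to 108% (median 42.1%) in oligodendrocyte-like nuclei. In OPC-like nuclei the range was 6.87% to 122% (median 33.5%), and in astrocyte-like nuclei 5.30% to 166% (median 26.4%). In microglia-like nuclei Pfkp was at 25.8% and 43.2% and Pfkm at 25.8% and 27.8% of the glutamatergic-like level, and Aldoa at 314% and 234%. The part of neuronal RNA in the glial levels of the members was not tested.

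The question of the experiment was how treatment with OLE altered expression in each cell type. In glutamatergic-like nuclei, 1835 from vehicle and 1819 from OLE, Aldoa, Tpi1, Pkm, Ldha and Pgk1 were counted at higher levels in the OLE library, while Hk1, Gpi1, Pfkm and Pfkp lay within 0.1 of equality on the log2 scale. Aldoa went from 36.3 to 57.0 UMIs per 1000000, a log2 ratio of OLE over vehicle of 0.65 (95% interval 0.56 to 0.74). At least 1 Aldoa UMI was found in 52.4% of the nuclei in vehicle and 66.4% in OLE, and in 3.87% (3.03 to 4.86) and 6.87% (5.75 to 8.13) with each nucleus subsampled to 1000 UMIs, a depth that all these nuclei reached. No cell type here is known to lack Aldoa, so these shares have no background to be read against. Tpi1 followed at 0.44 (0.31 to 0.57) and Pkm at 0.42 (0.33 to 0.50). Ldha was at 0.34 (0.19 to 0.50) and Pgk1 at 0.25 (0.11 to 0.40), just past the threshold of 0.25 used here, and at 0.19 when centred on the median of all genes or 0.24 with equal weight for every nucleus. These 5 genes serve the cutting of the sugar, the exchange of the triose phosphates, the steps that form ATP, and lactate formation.

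The other members had smaller ratios in glutamatergic-like nuclei. Hk1 was at 74.6 and 77.4 UMIs per 1000000, a log2 ratio of 0.05 (-0.02 to 0.12), and Pfkm at 0.03 (-0.07 to 0.12). Gpi1 was at 0.10 (0.03 to 0.16) from summed UMIs, but at -0.01 when every nucleus had equal weight. Pfkp was the only member lower in the OLE library, at -0.09 (-0.14 to -0.04), and Gapdh was at 0.12 (-0.26 to 0.50).

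Counted against a log2 ratio of 0.25, 5 of 10 members were past it upward in glutamatergic-like nuclei, where 21.3% of the 14033 genes with at least 100 UMIs were, and 0 were past it downward, as were 3.07% of all genes. The members had a median of 0.19, and all genes a median of 0.07. The UMIs of all 10 members together were at 523.6 per 1000000 in vehicle and 574.1 in OLE, a log2 ratio of 0.13 (0.11 to 0.16).

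In GABAergic-like nuclei, 340 from vehicle and 351 from OLE, Aldoa, Pgk1, Tpi1 and Pkm led. Aldoa went from 37.1 to 66.3 UMIs per 1000000, a log2 ratio of 0.84 (0.61 to 1.06), Pgk1 was at 0.72 (0.39 to 1.05) and Tpi1 at 0.63 (0.36 to 0.91). With nuclei thinned to 1000 UMIs Tpi1 turned to -0.25. Pkm was at 0.40 (0.22 to 0.58), and the muscle-type Pfkm at 0.36 (0.13 to 0.59). Ldha was at 0.34 with an interval from -0.15 to 0.84, and Hk1 at 0.17, Gpi1 at 0.19 and Pfkp at 0.10. Of the 9 members with at least 100 UMIs, 6 were past 0.25 upward against 23.9% of 9718 genes, and 0 were past it downward against 4.48%. The members together went from 473.7 to 591.4 UMIs per 1000000, a log2 ratio of 0.32 (0.25 to 0.39). Whether the ratios differed between both neuronal classes was not tested.

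**Figure D3:**
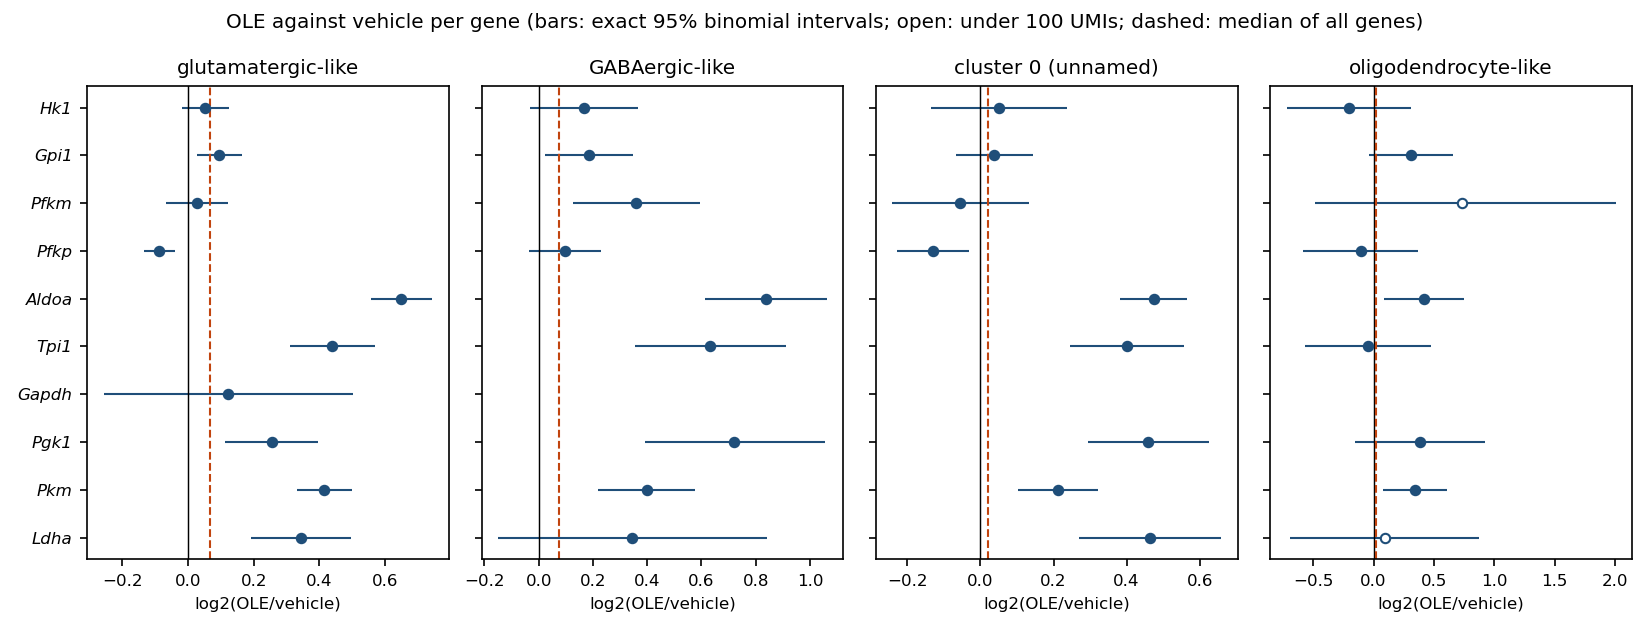
Each panel shows log2(OLE/vehicle) per gene in 1 group of nuclei, with exact 95% binomial intervals. Open points rest on under 100 UMIs, Gapdh is drawn only where it had at least 100, and the dashed red line is the median of all genes. Aldoa was at 0.65, 0.84, 0.47 and 0.42 in the 4 panels from left to right, and Pfkp at -0.09, 0.10, -0.13 and -0.11.

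The ratios were also taken in each neuronal cluster. Over the 11 glutamatergic-like clusters, the ratio of Aldoa was above 0 in 11, with its interval above 0 in 11 and a range from 0.40 to 1.00. Pkm was above 0 in 11, from 0.21 to 0.62, with its interval above 0 in 8. Tpi1, from 0.12 to 0.89, and Ldha, from 0.12 to 0.73, were also above 0 in 11, with intervals above 0 in 4 and 3. Pgk1 was above 0 in 10, with its interval above 0 in 2, Hk1 in 9, Gpi1 in 8 and Pfkm in 5. Pfkp was above 0 in 2, with a range from -0.22 to 0.11. In the 2 GABAergic-like clusters Pfkp was at 0.06 and 0.29, the latter with its interval above 0, and Ldha at 0.61 and -0.14. All clusters share the same 2 libraries, so they repeat the comparison across cells and not across animals.

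Levels also varied among these clusters, by gene. Over 15 clusters (11 glutamatergic-like, 2 GABAergic-like, and clusters 19 and 20, unnamed, with glutamatergic markers beside Kcnip1 or Gpc5 among their leading genes) Pfkp ranged from 101 to 235 UMIs per 1000000 over both libraries, a 2.34-fold range. Gpi1 ranged 3.02-fold, from 51.3 to 155 in cluster 20, whose leading genes include Reln. Pfkm and Aldoa were the most even, with ranges of 1.44-fold and 1.40-fold.

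**Figure D4:**
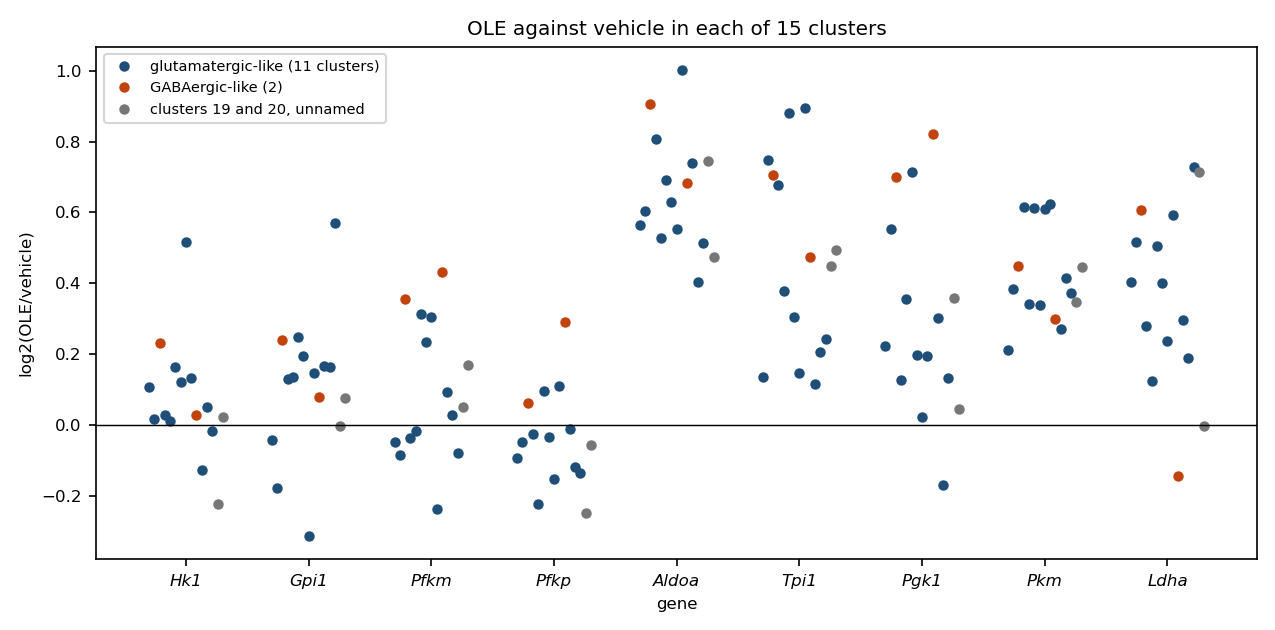
Each point is log2(OLE/vehicle) of a gene in 1 of 15 clusters, blue for glutamatergic-like, red for GABAergic-like and grey for the unnamed clusters 19 and 20. Every point of Aldoa lies above 0, from 0.40 to 1.00, whereas those of Pfkp lie from -0.25 to 0.29.

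Apart from Gapdh, the members that were higher in the OLE library in glutamatergic-like nuclei are also the shorter ones. Across all genes the ratio changed with span. In glutamatergic-like nuclei the median log2 ratio of all genes was 0.21 for spans under 10 kb (2880 genes), 0.08 from 10 to 50 kb, 0.01 from 50 to 200 kb and -0.02 over 200 kb, and 42.2% of the genes under 10 kb were past 0.25 upward. Aldoa (0.65) and Tpi1 (0.44) were above the median of their span class, and Gapdh (0.12) below it. Pkm (0.42), Ldha (0.34) and Pgk1 (0.25) were above the median from 10 to 50 kb, near which Gpi1 (0.10) and Pfkm (0.03) lay, and Hk1 (0.05) and Pfkp (-0.09) lay on either side of the median from 50 to 200 kb. In GABAergic-like nuclei the class medians were 0.27, 0.11, 0.02 and -0.04, and all 9 members compared were above the median of their class. The part of span in the ratios of the members was not tested.

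**Figure D5:**
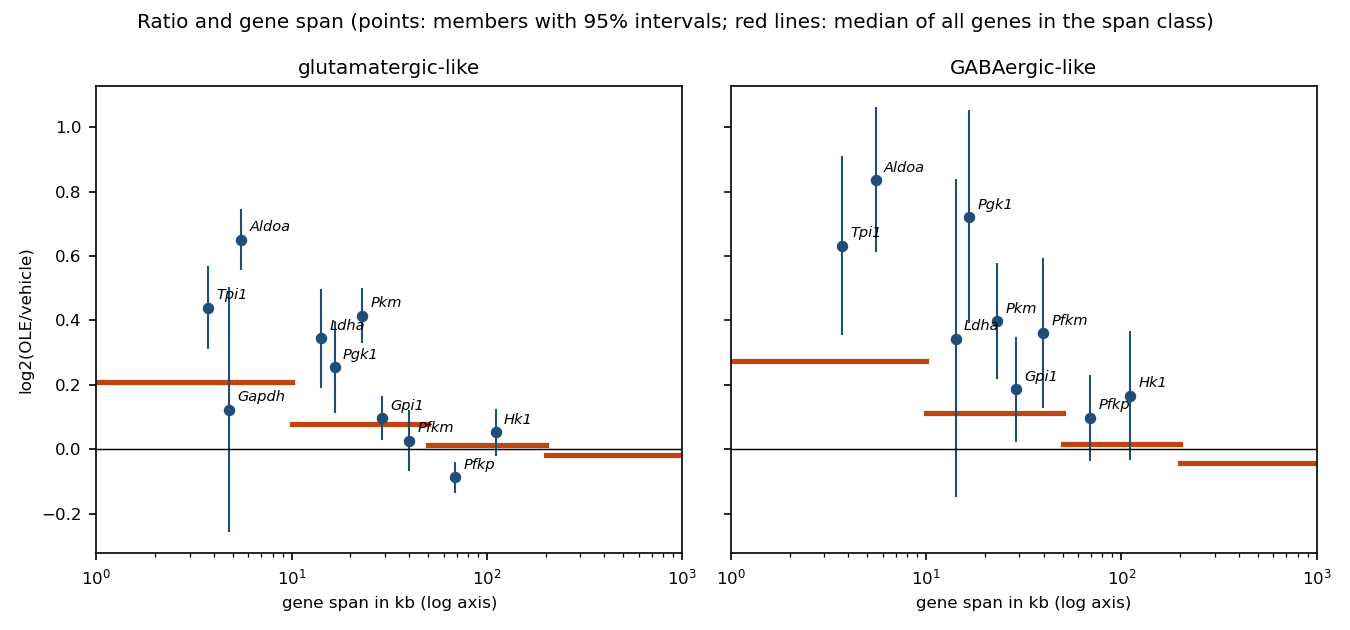
Log2(OLE/vehicle) is plotted against gene span in kb on a log axis, with exact 95% binomial intervals, for members with at least 100 UMIs in glutamatergic-like (left) and GABAergic-like (right) nuclei. Red lines are the median of all genes in each span class, which falls from 0.21 to -0.02 on the left and from 0.27 to -0.04 on the right.

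In cluster 0, Aldoa, Ldha, Pgk1 and Tpi1 had the highest ratios. Aldoa was at 0.47 (0.38 to 0.57), Ldha at 0.46 (0.27 to 0.66), Pgk1 at 0.46 (0.29 to 0.63) and Tpi1 at 0.40 (0.25 to 0.56), while Pkm was at 0.21 (0.10 to 0.32) and Pfkp at -0.13 (-0.23 to -0.03). Of 9 members with at least 100 UMIs, 4 were past 0.25 upward, against 13.4% of 11506 genes, and 0 downward, against 6.7%. The median depth of these nuclei differed between the libraries (2360 and 4752 UMIs), and its part in the ratios was not tested. In cluster 2, unnamed nuclei of about 1200 UMIs led by mitochondrial and ferritin genes, Aldoa was at 0.60 (0.37 to 0.84).

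Fewer UMIs were available in glia. In oligodendrocyte-like nuclei, 589 and 529, Aldoa was at 67.2 and 89.9 UMIs per 1000000, a log2 ratio of 0.42 (0.09 to 0.75), and Pkm at 0.34 (0.08 to 0.61). Hk1 was at -0.20 with an interval from -0.72 to 0.31. Of 7 members compared, 4 were past 0.25 upward, against 18.1% of 5866 genes, and 0 downward, against 10.4%. In OPC-like nuclei Pkm alone had at least 100 UMIs, at -0.15 (-0.74 to 0.43), so 0 of 1 members were past 0.25 in either direction, where 15.3% of 2603 genes were upward and 16.9% downward.

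In astrocyte-like nuclei, 121 and 137, the summed members were at 623.5 and 647.3 UMIs per 1000000, the highest vehicle level of the named types. The highest ratio among the 5 members compared was that of Pkm, at 0.36 with an interval from -0.12 to 0.86. It was the 1 member past 0.25 upward, against 15.6% of 3050 genes, and 0 were past it downward, against 16.9%. No difference between the libraries in the sum was detectable at this depth, with a log2 ratio of 0.05 (-0.12 to 0.23), and it was 0.36 (-0.08 to 0.80) with each nucleus thinned to 1000 UMIs.

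Microglia-like nuclei, 336 and 270, gave few UMIs per member. Of 3 members compared 1, Gpi1, was past 0.25 upward at 0.27 (-0.17 to 0.71), against 14.7% of 3669 genes, and 0 were downward, against 16.1%. Hk1 had under 100 UMIs, 53 in vehicle and 22 in OLE, or 60.5 and 30.6 per 1000000, a log2 ratio of -0.98 (-1.77 to -0.24). Hk2 was at 187 and 189 per 1000000 in the same nuclei. Pfkp had 41 and 53 UMIs, 46.8 and 73.7 per 1000000, a ratio of 0.66 (0.04 to 1.28). The sum of the members was at 0.17 (-0.02 to 0.35), and at -0.03 in the nuclei with the lower share of neuronal RNA.

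Microglia-like nuclei formed 2 main subclusters. Subcluster 0, with 167 and 136 nuclei, had 8 of 10 homeostatic markers raised, P2ry12 and Tmem119 among them, and subcluster 1, with 163 and 126 nuclei, had 14 of 15 disease-associated markers raised, such as Cst7, Lpl and Itgax. Over both libraries Hk2 was at 234 UMIs per 1000000 (201 to 270.5) in subcluster 0 and 150.1 (124 to 179.8) in subcluster 1. Pfkfb3 had the reverse order, at 67.2 (50.2 to 88.1) and 199.7 (169.7 to 234). Pkm was at 84.0 (64.8 to 107) and 150.1 (124 to 179.8), and the 10 members together at 508 (459 to 560.4) and 714 (656 to 775).

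Between libraries, the higher Pfkp count of OLE lay in the disease-associated-like subcluster 1. Pfkp had 17 UMIs in vehicle and 39 in OLE there, 40.3 (23.5 to 64.5) and 107 (76.2 to 147) per 1000000, and 22 and 13 UMIs in subcluster 0. Hk1 in subcluster 0 had 31 UMIs in vehicle and 9 in OLE, 70.5 (47.9 to 100.1) and 26.9 (12.3 to 51.1) per 1000000. In subcluster 1 it had 21 and 13. These counts are small, and a difference between the subclusters was not tested.

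In vascular leptomeningeal-like nuclei, 84 and 83, the ratio of Aldoa was 1.35 (0.85 to 1.87), from 46 and 127 UMIs in 24 and 34 nuclei, or 28.6% (19.2 to 39.5) and 41.0% (30.3 to 52.3) of them. Of these UMIs 35 and 108 were in cluster 21, and in cluster 22 the ratio was 0.80 (-0.34 to 2.02) from 11 and 19. Ldha was at 1.22 (0.43 to 2.07), from 19 and 48 UMIs, under 100 in all. The other members had intervals that included 0. Of 4 members with at least 100 UMIs, 2 were past 0.25 upward, as were 590 of 2862 genes, and 0 downward, as were 661. Of these 4 members 1, Aldoa, had its interval above 0. Among the 2862 genes, intervals lay above 0 for 325 and below 0 for 348. Mitochondrially encoded genes took 7.50% and 6.64% of the UMIs of these nuclei, against 0.339% and 0.314% in glutamatergic-like nuclei, and their part was not tested.

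Other genes of the pathway in neurons were described from fixed lists. Of 22 further glycolysis genes, 15 had at least 100 UMIs in glutamatergic-like nuclei and 6 were past 0.25 upward, against 21.3% of all genes, with a median of 0.20. The highest were Pfkfb2, a maker and remover of the phosphofructokinase activator, at 0.61, the phosphoglycerate mutase Pgam1 at 0.50 and Aldoc at 0.49. Eno3 was lowest at -0.10, and Pfkfb3 was at -0.08. In GABAergic-like nuclei 5 of 11 were past it upward, against 23.9% of all genes, and 1 downward, against 4.48%, with Aldoc at 1.26, Pgam1 at 0.75 and Pfkl at 0.45 highest and Pfkfb3 lowest at -0.52.

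Transporters of glucose, lactate and pyruvate gave 4 of 8 past 0.25 in glutamatergic-like nuclei, against 21.3% of all genes. These were Bsg, the escort protein of lactate transporters, at 0.76, the lactate transporter Slc16a3 at 0.68, the glucose transporter Slc2a1 at 0.51 and Slc16a1, named after its value was seen, at 0.28. The mitochondrial pyruvate carrier genes were the lowest, with Mpc1 at -0.01 and Mpc2 at -0.01. In GABAergic-like nuclei 2 of 6 were past it, against 23.9% of all genes, Bsg at 0.94 and Slc16a1 at 0.30.

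Routes beyond pyruvate had lower medians than the transporters (0.18) in glutamatergic-like nuclei. In GABAergic-like nuclei the median was 0.15 for the tricarboxylic acid cycle, 0.07 for pyruvate dehydrogenase and 0.14 for the transporters. Among pyruvate dehydrogenase genes 2 of 9 were past 0.25 in glutamatergic-like nuclei, Pdha1 at 0.33 and Pdk2 at 0.33, and among tricarboxylic acid cycle genes 1 of 17, Mdh1 at 0.33, with medians of 0.12 and 0.09, against 21.3% of all genes past it and a median of 0.07. In GABAergic-like nuclei the counts were 2 of 9 and 6 of 16, against 23.9% of all genes, with Idh3g at 0.43 and Mdh2 at 0.42 highest in the cycle. Against the same shares, pentose phosphate genes gave 0 of 8 and 2 of 5, and the hypoxia regulators 0 of 6 and 0 of 5, with Hif1a at 0.07 and 0.11.

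Levels were also correlated across 23 clusters with at least 50 nuclei, clusters 0 and 2 among them, both libraries summed. The Pearson correlation of log2(UMIs per 1000000 + 1) was 0.96 between Aldoa and Tpi1, 0.95 between Aldoa and Pkm and 0.94 between Aldoa and Pgk1. It was -0.16 between Pfkp and Aldoa. Gpi1 was nearer to Pgk1 (0.73) and Aldoa (0.63) than to Pfkp (0.39), Hk1 (0.35) or Pfkm (0.26). Among 7774 genes outside the lists, Ywhab (0.97), Ndufv1 (0.97) and Fkbp8 (0.97) were most like Aldoa, and Dclk1 (0.87), Celsr3 (0.86) and Jakmip1 (0.85) most like Pfkp. The sum of all 10 was most like Tuba4a (0.89), Vdac1 (0.87) and Coq2 (0.85). The points share libraries, depth and class composition, so these are descriptions.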

How the data were processed

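The authors isolated nuclei from frozen entorhinal cortex, built libraries with 10X 3′ v3 chemistry, aligned reads with Cell Ranger 3.0.1 to the mm10 pre-mRNA reference (the matrix headers give software version 3.0.2), and deposited whole-number UMI counts of 31053 genes per nucleus, not normalized. Seurat 4.0.4 is also named in the submitters' processing notes. Everything printed was computed from these counts, over 70845739 UMIs (vehicle) and 69485537 UMIs (OLE).

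The automatic doublet threshold of Scrublet (scanpy 1.11.5) called 0.119% and 0.113% of nuclei, so nuclei above the 95th percentile of its score, the top 5%, were removed per library (331 and 278). Clustering ran in R 4.3.3 on SCTransform residuals (sctransform 0.4.2 within Seurat 5.3.0) of 3000 variable genes, of which 21 genes of the metabolism lists were removed, with the Louvain method on 30 components and 20 neighbours at resolution 0.4. A marker was raised at 25% or more of its highest cluster level and in at least 10% of nuclei, and a name needed 3 raised markers. A cluster stayed unnamed where at least 50% of another class's markers were raised and none of its own was in its top 10 genes, where more markers of another class than of its own were in that top 10, or where its depth was under 1/3 of that of its class or library with no own marker there. These rules were chosen with the clusters in view. Subclusters of microglia used 15 components and resolution 0.3.

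UMIs were summed by symbol per library and type (Aldoa has 2 identifiers with 11366 and 70 UMIs), scaled per 1000000, and the libraries set against each other as log2(OLE/vehicle), with no pseudocount. Intervals are exact Poisson for levels and Clopper-Pearson for ratios and shares, at 95%. Counts past a log2 ratio of 0.25, medians and span classes rest on genes that reached 100 UMIs in the sum of the libraries. Spans come from GENCODE vM21 on GRCm38, matched to 31011 identifiers (99.9%), and promoters from RefSeq. All 10 members are named. Of other lists at most the 3 highest and 3 lowest ratios in a type and isozymes of the members are named, with exceptions marked as named after their values were seen. Likeness used genes with at least 2000 UMIs. The members, lists and markers were chosen with earlier results of these data known. The ratio calculation was tested on simulated data with counting error only, so that check does not cover differences between nuclei, mice or libraries. Software was Python 3.11.15 with pandas 2.3.3, numpy 2.4.6, scipy 1.17.1 and matplotlib 3.10.9. The other experiments of the study were not analysed here.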

Additional observations from a re-analysis of the deposited data

Results flagged for a closer look

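Pfkp differed in direction between groups of nuclei under the same comparison. Its log2 ratio of OLE over vehicle was 0.66 in microglia-like nuclei, from 41 and 53 UMIs, with an interval above 0, and -0.0877 in glutamatergic-like nuclei and -0.13 in cluster 0, with intervals below 0. The microglia-like ratio rests on under 100 UMIs and was not recomputed under other processing. Over all genes compared, intervals lay above 0 for 200 and below 0 for 269 of 3669 in microglia-like nuclei. They lay above 0 for 4190 and below 0 for 1296 of 14033 in glutamatergic-like nuclei. In cluster 0 the counts were 1299 and 826 of 11506. With 1 library per condition the difference between these groups was not tested.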

How the results depend on the processing

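Under the alternatives, 44 values of the summed members stayed within the counting interval of the reported value and 8 did not. Centred on the median of all genes, the sum was at 0.0647 for glutamatergic-like nuclei and 0.24 for GABAergic-like ones. With equal weight for every nucleus it was at 0.0930 and 0.23. Thinned to 1000 UMIs per nucleus it was at 0.41 in GABAergic-like, -0.23 in OPC-like and 0.36 in astrocyte-like nuclei. In the microglia-like nuclei with the lower neuronal share it was at -0.0299. With a log2 ratio of 0.5 as threshold, 1 member was past it in glutamatergic-like nuclei in place of 5, 3 in place of 6 in GABAergic-like, 0 in place of 4 in oligodendrocyte-like, and 0 in place of 1 for both microglia-like and astrocyte-like nuclei. Of single members 273 values stayed within the interval and 21 moved out of it. A further 2 changed sign where the reported interval excluded 0. These were Gpi1 in glutamatergic-like nuclei at -0.0136 with equal weight, and Tpi1 in GABAergic-like nuclei at -0.25 when thinned. Changes of sign where that interval included 0, such as those of Hk1 and Pfkm in glutamatergic-like nuclei, are among the 273 or the 21. The causes were not tested. Over the alternatives run, Aldoa ranged from 0.58 to 0.78 and Pkm from 0.35 to 0.42 in glutamatergic-like nuclei, and Pfkp from -0.21 to -0.09, whereas Hk1, at 0.05, ranged from -0.02 to 0.15, Tpi1 from 0.30 to 0.93, Gpi1 from -0.01 to 0.30 and Pfkm from -0.43 to 0.03. Pgk1 fell under 0.25 when centred (0.19) and with equal weight (0.24). No paired analysis was possible because each condition has 1 library, and for the same reason no replicate could be left out.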

Other observations

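Transporters were divided among the cell types, in genes picked after their values had been seen. The fructose transporter gene Slc2a5 was at 112 UMIs per 1000000 in vehicle and 150.3 in OLE in microglia-like nuclei and at 3.20 or less in the other 6 types. Slc16a3, which exports lactate, was at 25.1 and 29.2 there. Slc2a3, the glucose transporter of neurons, was at 94.1 and 98.9 in glutamatergic-like nuclei and 20.6 and 29.0 in oligodendrocyte-like nuclei. Slc16a1 was highest in vascular leptomeningeal-like nuclei, at 92.2 and 143. Bpgm, which makes 2,3-bisphosphoglycerate, was at 75.9 and 74.2 in oligodendrocyte-like nuclei.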
